A study of Mus musculus with 4 samples.

Results

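Nucleocytoplasmic transport genes were followed in mouse oocytes after a hydrostatic pressure treatment. The set comprised the nucleoporins, which build the nuclear pore, the importins and exportins, which carry cargo through it, and the GTPase Ran. Members were the genes whose name on the array begins with Nup, Kpna, Kpnb, Ipo, Xpo or Tnpo followed by a number or, for Nup, also by the letter l, together with Ran. They numbered 43 of the 27670 genes on the array, with 96 of its 41174 probes. Of the 43 genes, 22 were nuclear pore genes, 20 were transport receptors and 1 was Ran. The rule uses names on the array and no measured value.

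Treated oocytes were held under 20 MPa of hydrostatic pressure for 60 min at 37 °C, and control oocytes were handled in the same way without the pressure. Each of 4 two-colour Agilent arrays compared 1 treated pool of 50 oocytes, labelled with Cy5, with 1 control pool of 50, labelled with Cy3. Every array had the same dye orientation, so dye and treatment cannot be told apart in any value below. The submitters describe the 4 replicates as biological, and the strain, the age of the females and the meiotic stage are not given in the sources used here. In pooled oocytes a change in RNA per cell cannot be told apart from a change in the number of intact cells.

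The nuclear pore is a ring of nucleoporins around a channel filled with flexible, phenylalanine- and glycine-rich repeats. Importin alpha recognises a nuclear localisation signal and travels with importin beta, while other importin beta family receptors bind their cargo directly. Exportins carry cargo outward together with GTP-bound Ran, and the concentration of GTP-bound Ran in the nucleus sets the direction of transport. In a growing oocyte the nucleus, called the germinal vesicle, depends on this traffic, and at its breakdown the pores are taken apart and their parts reused for the spindle and the first embryonic nuclei.

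The array reads each gene through probes of at most 60 bases, printed here 5′ to 3′ with their position and strand in mouse build mm7, as given in the files. The first 3 are the probes behind the pore gene with the smallest p, the receptor with the smallest p and a pore gene whose probe lies across an intron, all of them measured. The probe of Nup107 is shown because it also lies across an intron and was not measured. The pair of Kpna2 probes comes from the same gene, and the first was measured while the second was not. The last probe was printed on the array as 10 spots and shows the error within an array.
Nup133 (chr8:122486544-122486603, minus strand): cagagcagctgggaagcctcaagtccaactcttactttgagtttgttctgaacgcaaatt
Xpo5 (chr17:44371210-44371269, plus strand): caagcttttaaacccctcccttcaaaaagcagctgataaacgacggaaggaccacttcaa
Nup37 (chr10:87730537-87732896, plus strand): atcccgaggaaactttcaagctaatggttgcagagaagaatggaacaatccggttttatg
Nup107 (chr10:117268748-117269322, minus strand): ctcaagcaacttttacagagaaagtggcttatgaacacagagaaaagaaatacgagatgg
Kpna2, measured (chr11:107097906-107097965, minus strand): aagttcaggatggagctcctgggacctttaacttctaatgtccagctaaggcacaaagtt
Kpna2, not measured (chr11:107099791-107099850, minus strand): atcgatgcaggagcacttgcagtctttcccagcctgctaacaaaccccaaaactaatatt
Ipo8, 10 spots (chr6:148850727-148850786, minus strand): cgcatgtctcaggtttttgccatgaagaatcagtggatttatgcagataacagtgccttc

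A probe was kept if Agilent's software marked it well above background in either the treated or the control channel on 3 or more arrays. By this rule 35 of the 96 probes were kept, and 27 of the 43 genes could be tested, against 25% of all genes on the array. The tested genes were 12 of 22 nuclear pore genes, 14 of 20 transport receptors and Ran. Among the 16 genes without a kept probe were Nup62, a central channel protein with phenylalanine- and glycine-rich repeats, and Nup107, a scaffold protein of the outer ring. The others were Nupl1, Nupl2, Nup43, Nup50, Nup93, Nup205, Nup210 and Nup210l among the pore genes. Kpna1, Ipo4, Ipo9, Tnpo2, Tnpo3 and Xpo6 were the receptors without one. No level is reported for these 16 genes, and a probe below the limit does not show that its transcript was absent.

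Whether a probe was measured went with its place in the gene. In the 30 genes with at least 2 probes on the same chromosome and strand, the probe nearest the 3′ end was kept in 15 of 30 genes (50.0%). Of probes up to 1 kb upstream of it in the genome 4 of 5 were kept, and of those 1 to 5 kb upstream 7 of 18 (38.9%). None of the 28 probes 5 kb or more upstream was kept. In the other genes of the array the shares were 32.4% at the most 3′ probe, 26.8% up to 1 kb, 20.2% from 1 to 5 kb and 9.08% beyond. These distances include introns. In 4 genes, Nup188, Nup214, Xpo1 and Xpo5, the most 3′ probe was not kept although one further upstream was. Probes whose genomic coordinates span at least 20 bases more than the probe, as they do across an intron, were kept in 1 of 19 cases among the members (5.26%), the exception being the Nup37 probe printed above. Contiguous member probes were kept in 34 of 77 cases (44.2%). In the rest of the array the shares were 12.5% and 20.6%. The median GC content was 41.7% in kept member probes and 43.3% in the others. The RNA had been amplified in 2 rounds, and the part of that step in these shares was not tested.

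**Figure D1:**
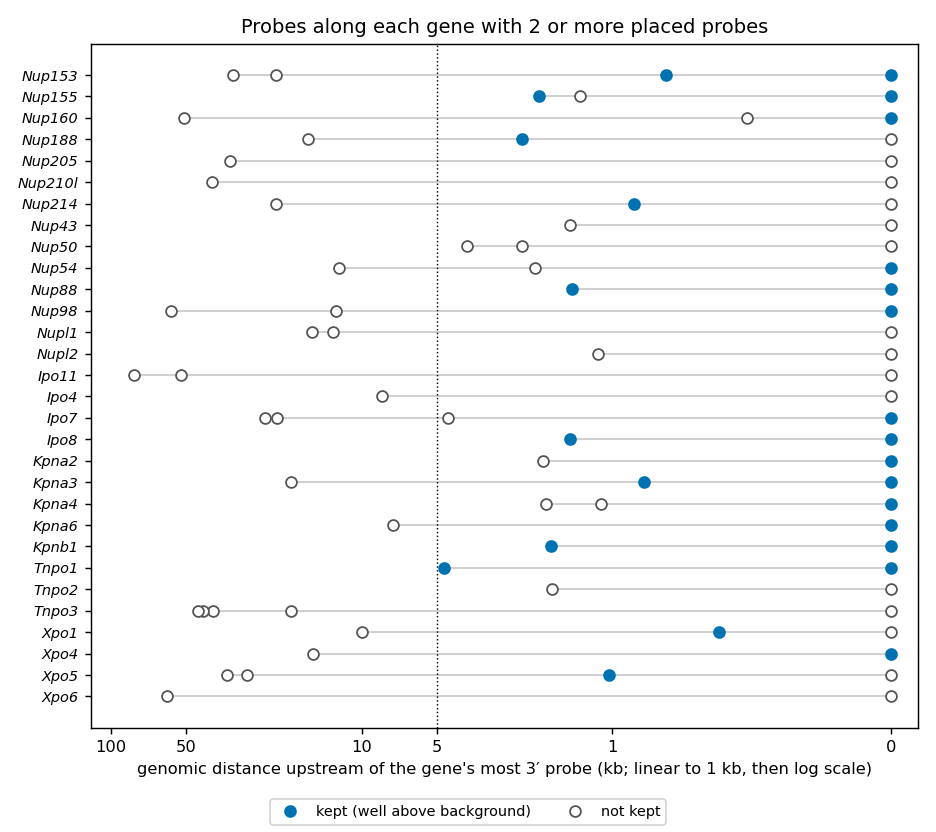
Position of the probes of 30 member genes along each gene, as genomic distance in kb upstream of the most 3′ probe (linear to 1 kb, then a log scale). Filled points are kept probes and open points the others. None of the 28 probes left of the dotted line at 5 kb was kept.

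No member passed the test between treated and control oocytes. Limma was fitted to all 6920 genes with a kept probe, and 0% of them were called in either direction at a Benjamini-Hochberg adjusted p of 0.05. The lowest adjusted p among the members was 0.929. No member reached an unadjusted p of 0.05 either, against 4.19% of all tested genes. Of the 27 members 15 had a mean log2 ratio below 0 and 12 above, against 52.4% of all tested genes below 0. Ran and Nup133, 2 of the 27, were below 0 on all 4 arrays, against 9.35% of the genes with 4 values, and no member was above 0 on all 4, against 2.94%. The filter itself bears on these signs, since a gene kept through 1 channel alone tends to be high in that channel. Of the 27 members 21 were kept through both channels and 6 (Nup133, Ipo7, Ipo11, Ipo13, Kpna4 and Xpo4) through the control channel alone. Over the whole array, 76.7% of the genes kept through the control channel alone had a mean below 0 and 20.2% were below 0 on all 4 arrays, against 47.7% and 6.88% of those kept through both. Ran belongs to the genes kept through both channels, and nothing is drawn here from the sign of Nup133. Values below are log2 ratios of treated over control oocytes unless stated otherwise, with the moderated SE of limma over 4 arrays, which ran from 0.17 for Ipo13 to 0.50 for Xpo5.

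**Figure D2:**
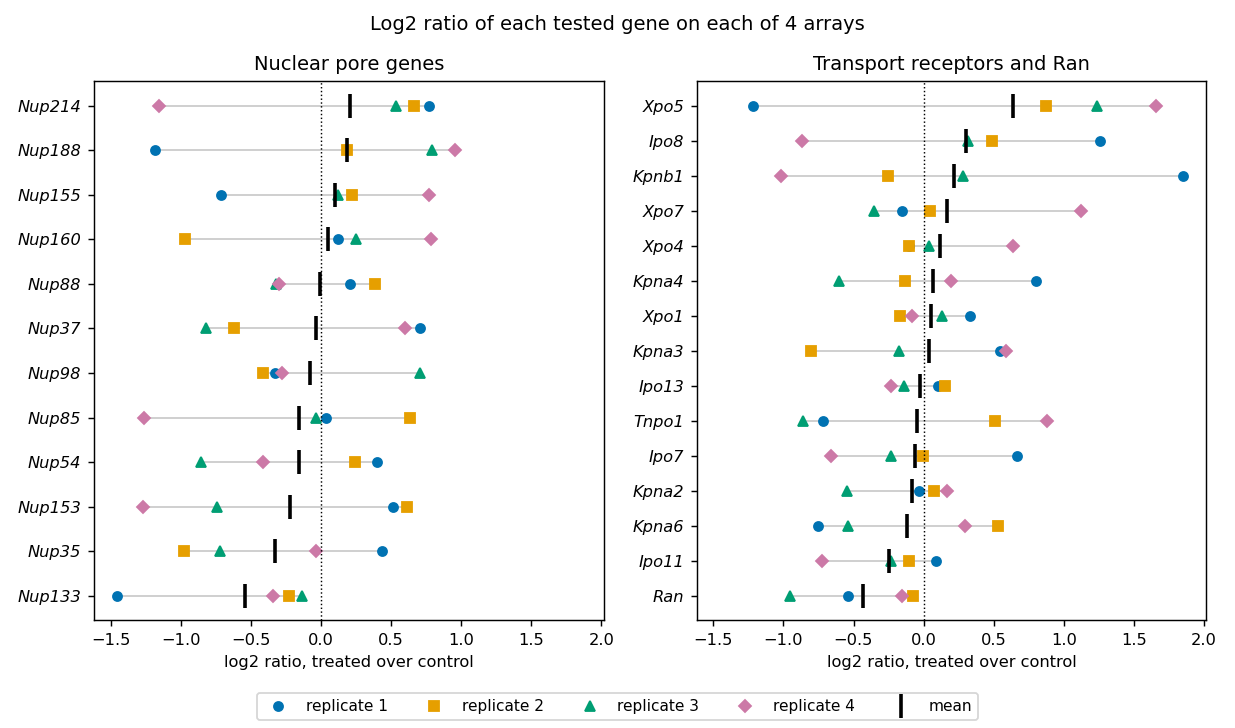
Log2 ratio of treated over control oocytes (horizontal axis) for the 12 tested nuclear pore genes and, with Ran, the 14 tested transport receptors. Coloured symbols are the 4 arrays, black ticks their means and grey lines their ranges. In all genes but Ran and Nup133 the arrays lie on both sides of 0.

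Ran showed lower values in treated oocytes on every array, by amounts that varied widely. Its log2 normalized intensity was 11.38, 10.73, 9.86 and 10.41 in the treated pools of replicates 1 to 4, against 11.92, 10.81, 10.81 and 10.56 in the control pools. Within each array the treated channel was the lower one, but the ranges of both channels overlapped across arrays. Arrays were normalized only within themselves, so intensities here and below can be set against each other within an array and not between arrays. The log2 ratios were -0.54, -0.07, -0.95 and -0.15, with a mean of -0.43 ± 0.21 (SE, n = 4 arrays; limma unadjusted p = 0.097, adjusted p = 0.929). Ran was read by a single probe, well above background on all 4 arrays in both channels.

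The outer ring, also called the Y complex, is the scaffold that coats the pore membrane. Nup133, a stem protein of this complex, had log2 ratios of -1.45, -0.23, -0.13 and -0.34, a mean of -0.54 ± 0.28 (SE, n = 4 arrays; limma adjusted p = 0.929). Its log2 intensity was 5.64, 7.34, 6.02 and 5.82 in treated pools, against 7.09, 7.57, 6.15 and 6.17 in control pools. The treated readings, none of them well above background, were highest on replicate 2, so the floor differed between arrays. The probe was well above background in the control channel on all 4 arrays and in the treated channel on none, so the treated level is only bounded. Set at that bound, the mean of the treated channel lay at least 1.42-fold below that of the control channel. This value covers the limit of detection and not the spread between arrays. Since Nup133 was kept through the control channel alone, which favours values below 0, no decrease in treated oocytes is drawn from it. The mean log2 ratio rests on replicate 1. The other 3 arrays lay between -0.34 and -0.13, and without replicate 1 the mean was -0.23.

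Nup98, whose transcript encodes both the mobile nucleoporin Nup98 and the outer ring protein Nup96, had ratios of -0.33, -0.41, 0.71 and -0.28 and a mean of -0.08 ± 0.25 (SE). Replicate 3 alone was above 0. The probe used lies on an unplaced segment of chromosome 7 in mm7, while the other 3 Nup98 probes lie on chromosome 7 itself. Of the remaining outer ring genes, Nup160 averaged 0.05, Nup37 -0.03 and Nup85 -0.16, each with arrays on both sides of 0. In all, 4 of the 5 tested outer ring genes had a mean below 0, against 52.4% of all tested genes. Nup133 among them had been kept through the control channel alone, and no trait of the ring is drawn from this count.

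Inner ring genes, which join the scaffold to the membrane and the channel, differed from one another in sign. Nup35, a protein of this ring that binds the membrane, had ratios of 0.44, -0.97, -0.72 and -0.04 and a mean of -0.32 ± 0.28 (SE, n = 4 arrays; limma adjusted p = 0.929). Its log2 intensity was 11.43, 10.40, 8.91 and 10.84 in treated pools, against 10.99, 11.38, 9.64 and 10.88 in control pools. The ranges overlapped across arrays, which were normalized only within themselves. Without replicate 2 its mean was -0.11. Nup155, a scaffold protein of the same ring, had ratios of -0.71, 0.22, 0.12 and 0.77 (mean 0.10), and Nup188 averaged 0.19 with a range of -1.19 to 0.96. In both genes replicate 1 was the only array below 0.

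Nup54, a central channel nucleoporin, had ratios of 0.40, 0.24, -0.86 and -0.42 and a mean of -0.16 ± 0.27 (SE, limma adjusted p = 0.945). Replicates 1 and 2 were above 0 and replicates 3 and 4 below. Nup153, a protein of the nuclear basket, had the same split, with 0.51 and 0.61 on replicates 1 and 2 and -0.74 and -1.27 on replicates 3 and 4. At the cytoplasmic face, where exported mRNA is released, Nup214 averaged 0.20, with 3 arrays between 0.53 and 0.77 and replicate 4 at -1.15. Its partner Nup88 averaged -0.01 within a range of -0.32 to 0.39.

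Among the receptors, all 4 tested exportins had a mean above 0, against 3292 of all 6920 tested genes. None of the 4 was above 0 on every array, and no trait of the exportins is drawn from this count. Xpo5, which exports precursor microRNAs, had the highest mean of all members, with ratios of -1.22, 0.87, 1.24 and 1.66 and a mean of 0.64 ± 0.50 (SE, n = 4 arrays; limma adjusted p = 0.929). Its log2 intensity was 7.62, 9.98, 7.96 and 10.01 in treated pools, against 8.84, 9.11, 6.72 and 8.36 in control pools. Treated pools were the brighter ones on replicates 2, 3 and 4 and the dimmer on replicate 1, and the mean was 1.26 without replicate 1 and 0.30 without replicate 4. With median centring in place of loess it was 0.07. Xpo1, also known as CRM1, the exportin for leucine-rich export signals, had ratios of 0.33, -0.17, 0.13 and -0.08 (mean 0.05 ± 0.17, SE). Xpo4 averaged 0.12 and Xpo7 0.17, with replicate 4 the highest in both, at 0.64 and 1.12.

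Kpnb1, importin beta 1, the common carrier of the classical import route, had one of the widest spreads between arrays among the members. Its ratios were 1.85, -0.26, 0.28 and -1.02, with a mean of 0.22 ± 0.48 (SE, n = 4 arrays; limma adjusted p = 0.96). The treated pools had log2 intensities of 9.27, 8.44, 9.01 and 7.38, and the control pools 7.42, 8.69, 8.73 and 8.40. Without replicate 1 the mean was -0.33.

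Ipo8, an importin beta family member that also carries Argonaute proteins, had ratios of 1.26, 0.49, 0.32 and -0.87 and a mean of 0.30 ± 0.36 (SE, limma adjusted p = 0.931). Without replicate 1 its mean was -0.02. Ipo11 had ratios of 0.09, -0.11, -0.23 and -0.73, a mean of -0.24 ± 0.20 (SE, limma adjusted p = 0.929). It was well above background in no treated pool and in 3 control pools, and without replicate 4 its mean was -0.08. The kept Ipo11 probe lies on an unplaced segment of chromosome 10 in mm7, and the 3 probes on chromosome 13 were not kept. Ipo7, Ipo13 and Tnpo1, also called transportin 1, had means between -0.06 and -0.03. Tnpo1 had a second kept probe, well above background on all 4 arrays in both channels, whose mean was -0.64 against -0.05 for the probe used. Of the 6 tested importers of this family, 4 had a mean below 0 and 2 above, against 52.4% of all tested genes below 0. Of those below 0, 3 (Ipo7, Ipo11 and Ipo13) had been kept through the control channel alone.

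The importin alpha genes, which encode the adaptors for classical localisation signals, were spread evenly around 0, with 2 means above and 2 below. Kpna2, the family member long studied in mouse oocytes and early embryos, had ratios of -0.03, 0.07, -0.55 and 0.17 and a mean of -0.09 ± 0.19 (SE, n = 4 arrays; limma adjusted p = 0.961). Its log2 intensity was 11.19, 10.63, 9.28 and 9.92 in treated pools, against 11.23, 10.56, 9.83 and 9.76 in control pools. Replicate 3 was the farthest from 0. Kpna3 had ratios of 0.54, -0.81, -0.18 and 0.59 (mean 0.04), Kpna4 averaged 0.07 and Kpna6 -0.12.

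**Figure D3:**
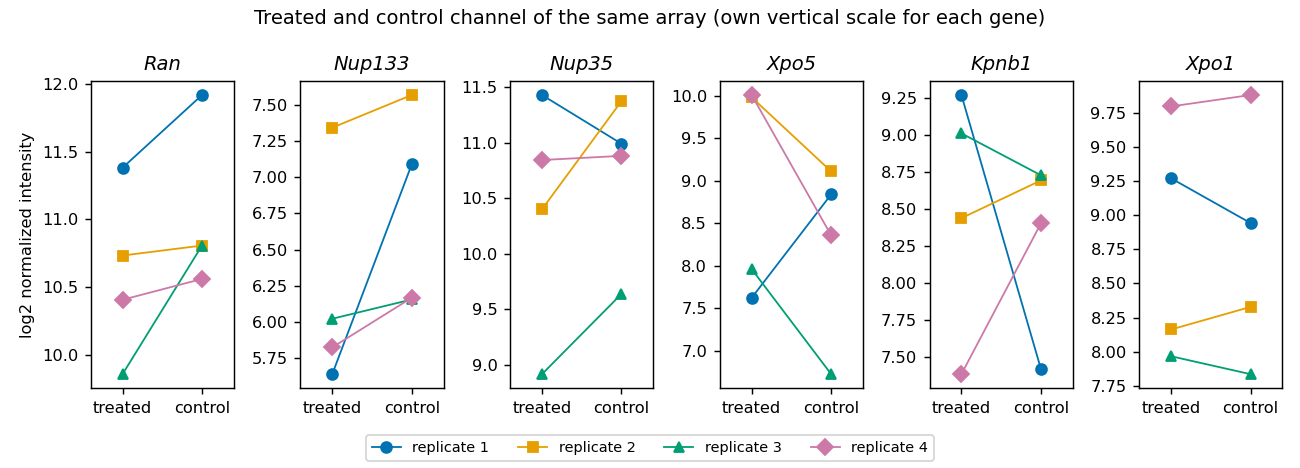
Log2 normalized intensity of the treated and the control channel of each array for 6 members, each with its own vertical scale; lines join the pools of an array. The lines of Ran and Nup133 all run the same way, with treated pools lower, while those of Xpo5 and Kpnb1 run both ways.

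The medians of nuclear pore genes and of transport receptors differed by less than the spread between arrays. The median over the 12 tested pore genes was 0.16, 0.20, -0.08 and -0.29 on replicates 1 to 4, a mean of -0.002 ± 0.23 (SD, n = 4 arrays). Over the 14 tested receptors it was 0.10, 0.02, -0.20 and 0.18, a mean of 0.02 ± 0.17. The pore median minus the receptor median was 0.07, 0.18, 0.12 and -0.47, and averaged -0.03 ± 0.30 (SD, n = 4). The difference was positive on 3 arrays, negative on replicate 4, and on average smaller than its spread. The median over all 6920 genes averaged -0.03 ± 0.02. Only 27 of the 43 genes enter these medians.

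**Figure D4:**
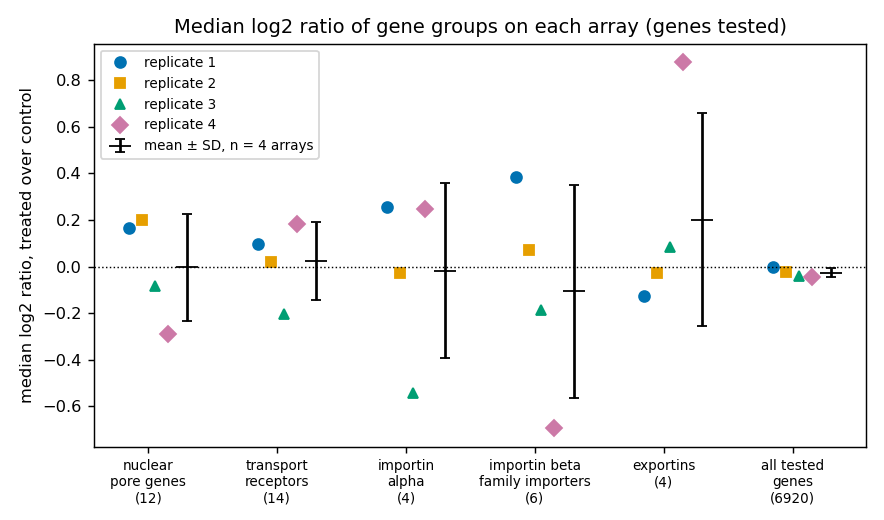
Median log2 ratio of treated over control oocytes for each gene group on each array, with the number of genes tested under each name; black bars are the mean ± SD over 4 arrays. The mean ± SD of each of the 5 member groups shown spans 0, and that of all tested genes is -0.03 ± 0.02.

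The members' median spread between arrays was above that of all genes. The SD of the log2 ratio over 4 arrays ranged from 0.19 to 1.28 among the 27 members with a median of 0.62, against a median of 0.52 over 6868 genes. Over all probes replicate 1 stood apart from the other arrays. Its correlation with replicates 2, 3 and 4 was -0.17, -0.15 and -0.19, while those among the other 3 lay between 0.09 and 0.29. Over the 27 members the correlation of replicate 1 was -0.22 with replicate 2, -0.16 with replicate 3 and -0.54 with replicate 4. Replicates 2 and 4 also had a negative one, -0.165, while replicate 3 had 0.166 with replicate 2 and 0.141 with replicate 4. These are a description, since members share the arrays. On replicates 1 and 4, the lowest pair, 7 of 27 members had the same sign, and the share over all genes was not computed. Replicate 1 was also the only array with more member probes well above background in the treated channel (46 of 96) than in the control channel (31 of 96). The other arrays had 27 to 30 in the treated channel and 36 to 40 in the control channel. All 43379 spots showed the same order, with 11155 well above background in the treated and 8309 in the control channel of replicate 1, against 7049 to 8146 in the treated and 9505 to 10837 in the control channel of the others. Without replicate 1, no member passed, 2 members had an unadjusted p under 0.05 and the lowest adjusted p among members was 0.185, while 758 of all tested genes had an unadjusted p under 0.05.

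Repeat spots give the technical error within an array, which is only part of the spread between separate pools. The Ipo8 probe printed as 10 spots had a mean log2 ratio of 0.53, 0.74, 0.12 and -0.45 on replicates 1 to 4, with an SD over its spots of 0.30, 0.34, 0.05 and 0.25, against an SD of 0.52 between the means of the 4 arrays. Over the 59 kept probes with repeat spots on the whole array, the median SD was 0.083 within an array and 0.56 between arrays, and the second was larger for 59 of 59. Different probes of a gene were compared by sign. In the 8 members with 2 kept probes, both probes had the same sign in 18 of 32 comparisons on single arrays (56.2%), against 60.8% of 4056 comparisons in 1014 other genes. Ipo8 and Kpna3 agreed in sign on all 4 arrays, and Nup153 on none. The second Nup153 probe was well above background in 2 treated and 3 control pools, and its ratios lay between -0.11 and 0.16. The second probes of Nup88, Nup98, Nup155, Ipo8 and Kpna3 were also below that limit in some pools, so part of these signs come from dim probes. Both probes of Kpnb1 and of Tnpo1 were well above background in every pool. They had the same sign on 2 arrays for Kpnb1 and on 1 for Tnpo1. The part of dim probes in the disagreement was not tested. The means differed in sign in 4 of the 8, against 41.4% of the other genes. They were 0.04 and -0.09 for Kpna3, 0.22 and -0.23 for Kpnb1, 0.10 and -0.33 for Nup155, and -0.08 and 0.07 for Nup98. In each of these the first value is that of the brightest probe, the one used in the test. For Kpnb1 the second probe gave 0.05, 0.04, -0.91 and -0.08.

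**Figure D5:**
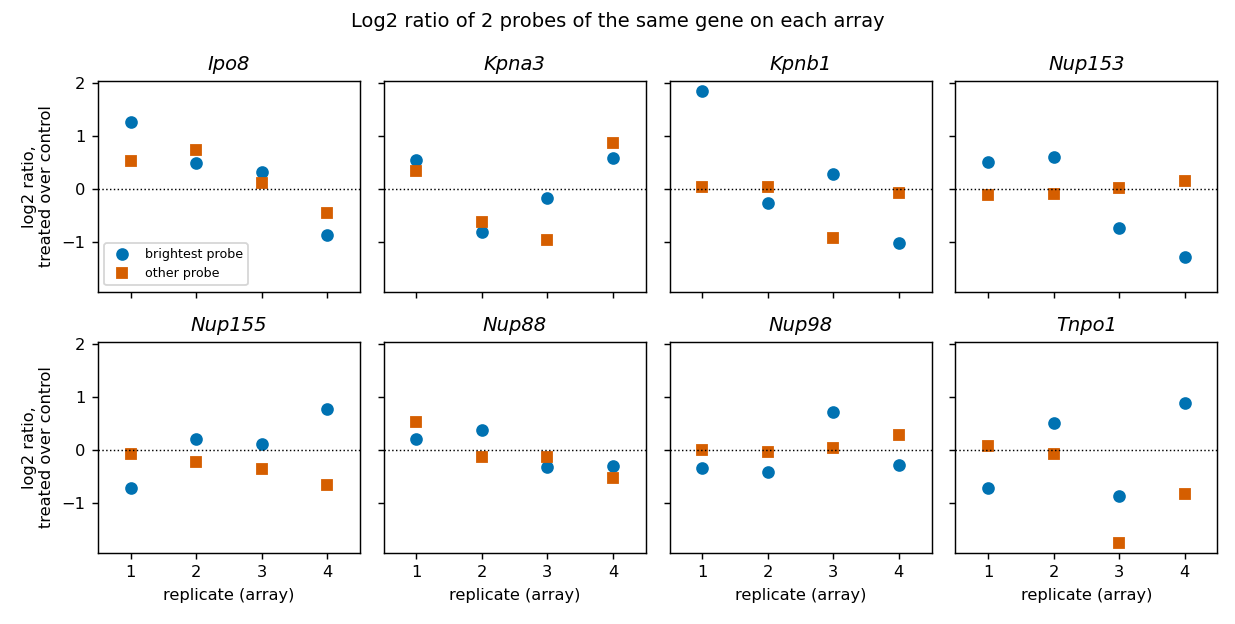
Log2 ratio of treated over control oocytes on each array for both kept probes of 8 members, the brightest as blue circles and the other as orange squares. Ipo8 and Kpna3 have both probes on the same side of 0 on all 4 arrays, and Nup153 on none.

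Other genes of nuclear transport were read in the same fit. Of 41 such genes on the array 23 were tested and none passed, and 2 of them had an unadjusted p under 0.05, against the 4.19% of all tested genes given above. Seh1l, a further outer ring protein, was below 0 on all 4 arrays, at -0.96, -2.02, -0.25 and -0.38 (mean -0.90 ± 0.34, SE, n = 4 arrays; limma unadjusted p = 0.039, adjusted p = 0.929). It was well above background in 1 treated pool and in 4 control pools, so it too was kept through the control channel alone, which favours values below 0. Without replicate 2 its mean was -0.53. Nxt1, a cofactor of the mRNA exporter Nxf1, was above 0 on all 4, at 0.98, 0.07, 0.76 and 0.46 (mean 0.56 ± 0.21, SE, n = 4 arrays; limma unadjusted p = 0.041, adjusted p = 0.929). Eny2, a subunit shared by histone-modifying and mRNA export complexes, had ratios of -0.52, 0.21, 0.02 and -0.68 (mean -0.24). The 7 tested pore genes of that list averaged a median of 0.03 ± 0.37 over the arrays, and the 12 mRNA export genes 0.04 ± 0.36 (SD, n = 4).

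The oocyte label was checked against marker genes. Of 11 oocyte markers on the array 7 had a kept probe, among them the growth factors Gdf9 and Bmp15, while Zp2, Figla, Nlrp5 and Mos did not. Of 14 cumulus and granulosa cell markers 6 had a kept probe, while Has2, Ptx3, Fshr, Lhcgr, Foxl2, Amh, Inhba and Kitl did not. Of all genes on the array 25% had one. The median log2 ratio of those 6 was -0.13, -0.07, 0.003 and -0.05 on replicates 1 to 4, against -0.12, -0.28, 0.37 and 0.07 for the oocyte markers. The means of the 6 ranged from -0.65 for Hsd17b1, which was well above background in no treated pool, to 0.36 for Cyp19a1, with 4 below 0 and 2 above. Tnfaip6, a marker of cumulus and granulosa cells, was well above background on all 4 arrays in both channels. Its mean log2 intensity over both channels was 10.4. The other kept markers of these cells were much dimmer, from 6.5 for Hsd17b1 to 7.4 for Ptgs2. Of the oocyte markers, Zp3, Zar1 and Nobox lay below Tnfaip6, at 7.9 to 8.8, and Gdf9, Bmp15, Oosp1 and Dppa3 above it, at 13.1 to 14.8. The part of other cells in the members' values was not tested.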

How the data were processed

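The deposited scanner files give, for the red and the green channel, each spot's mean intensity and the median intensity around it. The submitters' processing notes name Agilent Feature Extraction 9.5.1.1. Per the labels' protocols, cRNA was amplified in 2 rounds from 240 pg of total RNA per sample. The deposited value table is the log10 ratio of red over green, equal to the scanner files' own ratio to within 5e-10, and was used as an alternative.

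Intensity was corrected by normexp (offset 50) and loess-normalized within arrays in limma 3.58.1 (R 4.3.3), with control spots at weight 0. Outlier spots were left out, no spot was saturated, and spots of a probe were averaged. Of 41174 probes 8108 were kept, and the brightest kept probe stood for each gene. Log2 ratios of red over green were set against 0 by lmFit with eBayes, Benjamini-Hochberg adjusted over all 6920 genes. Members kept their name on the array. Other genes were updated to current names through a RefSeq table of GRCm38.p6, used for names only.

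Bounds set a channel below background on every array at the higher of the lowest detected signal and its own value, per channel after loess and Aquantile, and leave out the spread between arrays. The number of arrays limits precision. Members and lists were chosen with earlier results of these data known. Members named with values on each array were the 3 of smallest p in each group, those of 1 sign on 4 arrays, the best known, and those whose probes differ in sign. For other transport genes the rule was the smallest p or 1 sign on 4 arrays. The tests were tried on simulated data.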

Additional observations from a re-analysis of the deposited data

Results flagged for a closer look

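In 39 sets of 4 values on the arrays, 3 had an array whose gap to the others was wide for the set's range, where chance gives about 5% of sets. Nup133 was at -1.45 on replicate 1, against -0.34 to -0.13 on the others. Nup214 was at -1.15 on replicate 4, against 0.53 to 0.77. Nup98 was at 0.71 on replicate 3, against -0.41 to -0.28.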

How the results depend on the processing

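No member and no other transport gene passed the threshold under any of 15 alternatives. The alternatives were no background subtraction, Agilent's processed signals, median centring, scaling between arrays, no filter on dim probes, detection in both channels, the mean over probes, trended and robust eBayes, array weights, the authors' values, replicate 1 with its sign turned, and each array left out. The lowest limma adjusted p of a member was 0.0535, for Xpo5 with the sign of replicate 1 turned, and it was also the lowest of all tested genes. Replicate 1 correlates negatively with the others in these same data, so turning it narrows the spread. Genes with an unadjusted p under 0.05 rose from 290 to 933 over the array. Nothing is drawn from this value for Xpo5. All arrays were on 1 slide with 1 scan, so the slide block was not run. The main fit is itself paired, since each ratio pairs the pools of an array, so no further paired analysis was run.

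Median centring moved the pore median to -0.52 and the receptor median to -0.39, when the median of all genes was -0.30, against -0.03 with loess. It put 25 members below 0 and 2 above. Leaving out an array, the pore median ranged from -0.07 to 0.09, the receptor median from -0.03 to 0.10 and their difference from -0.09 to 0.12. Over all alternatives the difference lay between -0.12 and 0.12.

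Ran, Nup35, Xpo5, Ipo11, Seh1l and Nxt1 kept their sign under every alternative that gave a value. Several alternatives could not have turned it. Trended and robust eBayes reuses the ratios of the main fit, and the authors' values repeat the processed signals. Leaving out or weighting arrays cannot turn Ran, Seh1l or Nxt1, which had the same sign on every array. The kept sign is therefore not read as a test of these genes. Detection in both channels left no value for Ipo11, Nup133, Seh1l and Nxt1. Ipo11 and Seh1l were kept through the control channel alone, which favours values below 0, so nothing is drawn from their kept sign. With processed signals Nup133 was -3.94, Ipo11 -2.13 and Seh1l -3.98, against -0.54, -0.24 and -0.90 in the main fit. Their treated channel was well above background on 0, 0 and 1 arrays. These sizes therefore rest on treated signals near background and are not read as fold changes. Leaving out an array, Xpo5 ranged from 0.30 to 1.26, and median centring gave it 0.07. Other named genes turned sign, and the cause was not tested. With median centring Ipo8 was -0.33, Kpna3 -0.68, Kpnb1 -0.35, Nup155 -0.31 and Xpo1 -0.51. With scaling Kpna3 was -0.49, Kpnb1 -0.0040, Nup54 0.037 and Xpo1 -0.066. With the mean over probes Kpna3 was -0.026, Kpnb1 -0.0056 and Nup155 -0.11. With array weights Kpna3 was -0.42, Kpnb1 -0.045, Xpo1 -0.053 and Eny2 0.021. With processed signals and with the authors' values Kpna2 was 0.020. With the sign of replicate 1 turned, Ipo8 was -0.33, Kpna3 -0.23, Kpnb1 -0.71, Nup133 0.19, Nup98 0.088, Xpo1 -0.11 and Eny2 0.017. Leaving out an array, the ranges were -0.022 to 0.69 for Ipo8, -0.17 to 0.070 for Kpna2, -0.15 to 0.32 for Kpna3, -0.33 to 0.63 for Kpnb1, -0.12 to 0.37 for Nup155, -0.34 to 0.074 for Nup54, -0.34 to 0.034 for Nup98 and -0.039 to 0.13 for Xpo1.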
